A study of Rattus norvegicus with 7 samples.

Results

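The genes described here are 9 genes of the BCL2 family, Bcl2, Bcl2l1, Mcl1, Bcl2a1, Bax, Bak1, Bid, Bad and Bcl2l11, measured in rat lung under hypoxia and SU5416 with and without sorafenib. A probe set, the group of array probes that reports 1 transcript region, was taken for a gene where the platform annotation gave that gene as its only symbol. By this rule 8 of the 9 genes, among 14217 genes with such a probe set in all, had 14 of the 31042 non-control probe sets. The probe set of Bax carried a second symbol as well and was left out, so Bax has no value below. The 9 genes include no caspase, and the caspases are given further on as genes of the same pathway.

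The HSU_Sor group (4 arrays, numbered 1 to 4) came from rats of the inbred Dahl salt-sensitive strain, kept in hypoxia with an inspired oxygen of about 9.5% and treated with SU5416 and sorafenib. The HSU group (3 arrays, named 1b, 2b and 3b) came from rats of the same strain that received hypoxia and SU5416 without sorafenib, so both groups shared the hypoxia and the SU5416. SU5416 inhibits VEGF receptors, and sorafenib inhibits RAF kinases and receptor tyrosine kinases that include those of VEGF and PDGF. Lungs were taken at 3.5 weeks from perfused animals whose age the labels do not give, and RNA came from the right lung. The study design also describes normoxic and vehicle groups, which are not among these 7 arrays. Nothing below therefore says how hypoxia or SU5416 alone changed these genes.

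BCL2 family proteins decide whether the outer mitochondrial membrane is opened during apoptosis. Anti-apoptotic members (BCL2, BCL-XL from Bcl2l1, MCL1 and the BCL2A1 protein) hold back the effectors BAX and BAK1, which form pores in that membrane when active. BH3-only members such as BID, BAD and BIM (from Bcl2l11) sense stress and either neutralise the anti-apoptotic proteins or activate the effectors. Cytochrome c released through the pores assembles the apoptosome, which activates caspases, the proteases that dismantle the cell. Much of this control acts on proteins (cleavage of BID, phosphorylation of BAD, turnover of MCL1), which a transcript array does not measure. In the lung under hypoxia and VEGF receptor blockade, loss of endothelial cells by apoptosis is widely discussed as an early step of the vascular disease.

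Values are the log2 expression levels that the authors deposited, and a difference is the HSU_Sor mean minus the HSU mean on that scale. The limma fit covered 15521 probe sets, those with a 7-array mean past a filter set at 3.64 (the midpoint of all 31042), and p-values were adjusted over all of them. Levels of different probe sets cannot be set against each other, since each has its own probes. Lung markers were high on all arrays (Sftpc of alveolar type II cells averaged 15.47, Ager of type I cells 14.64 and the endothelial Kdr 13.85), while all 3 measured B cell markers lay under the filter. The libraries were not alike in other respects. The erythroid genes Hbb and Alas2 were low on HSU_Sor 3 and 4, and cardiac genes such as Mb were high on HSU 1b and 2b. The summed smooth muscle markers ran from 14.50 to 15.09 in HSU_Sor and from 15.26 to 15.41 in HSU. Summed levels, here and below, are the log2 of the sum of unlogged levels, with 1 probe set per gene. The brightest probe sets, such as that of Tagln here, therefore weigh most. Every HSU replicate number carries the letter b and none of the HSU_Sor numbers does, and what the letter marks is not stated. Whatever it marks and the effect of sorafenib cannot be told apart.

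None of the member genes changed past the adjusted threshold. Of the 14 member probe sets, 8 from 6 genes (Bcl2l1, Mcl1, Bcl2a1, Bak1, Bad and Bcl2l11) were above the filter, and 0 of these 8 had an adjusted p below 0.05, against 0% of all 15521. Bak1 alone had an unadjusted p below 0.05, where 6.00% of all probe sets did, and Bak1 alone had groups that did not overlap, where 5.26% of all did. No member reached a difference of 1.4-fold (0.49 on the log2 scale), which 4.46% of all probe sets did. Of the 8, 4 were higher and 4 lower in HSU_Sor, and their median difference was -0.01, as was the median of all tested. With 8 probe sets, counts of 1 and 0 cannot be set apart from shares of this size. The lowest adjusted p of any tested probe set was 0.15, so the same test called no gene anywhere on the array, and 931 had an unadjusted p below 0.05.

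**Figure D1:**
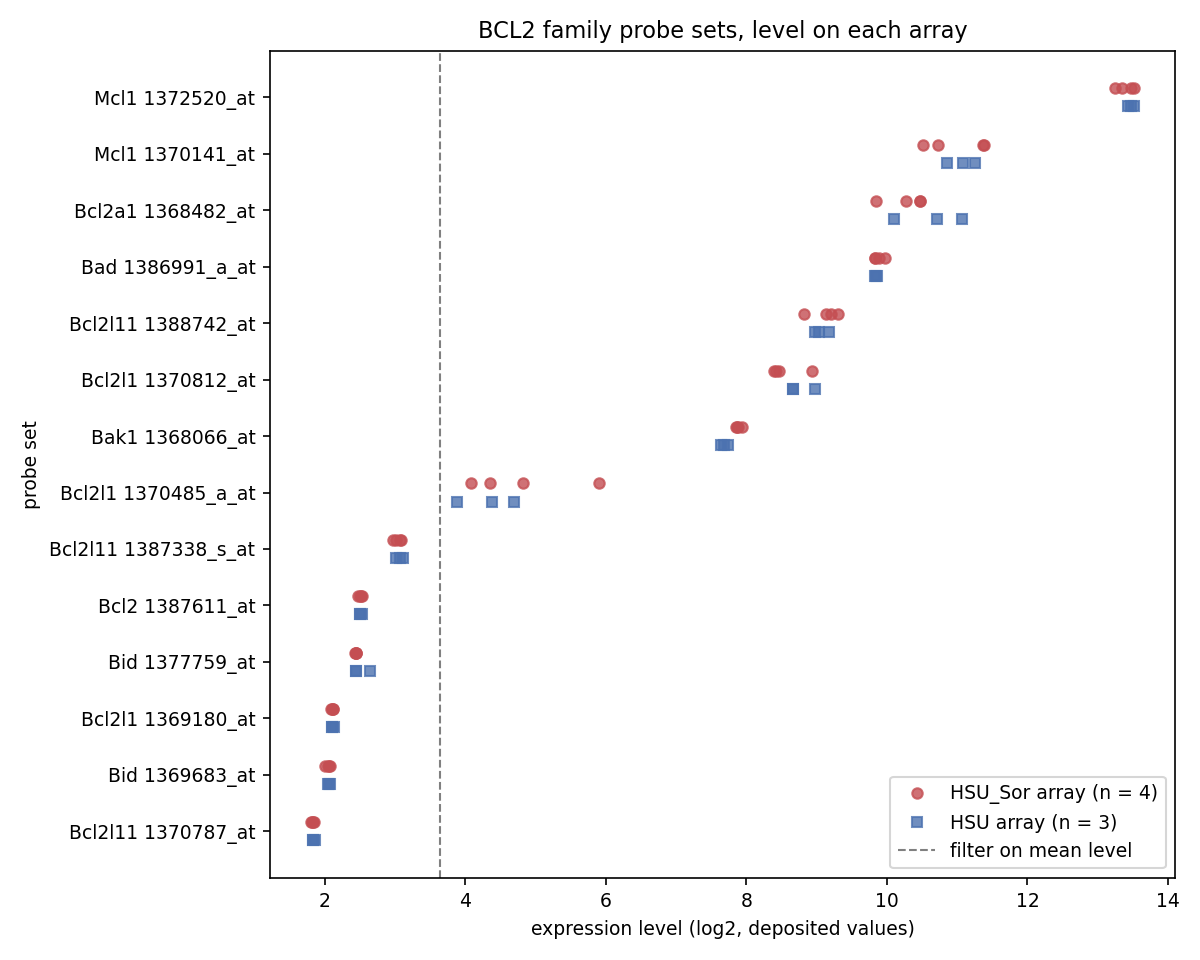
Log2 expression level (horizontal axis) of each of the 14 BCL2 family probe sets on each HSU_Sor array (circles, n = 4) and each HSU array (squares, n = 3). The dashed line is the filter at 3.64. The HSU_Sor and HSU points overlap for each of the 8 probe sets to the right of it except Bak1, and the 6 to its left stay within 0.2 of each other across the 7 arrays.

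Bcl2, the founding anti-apoptotic gene of the family, had a single probe set, and it lay under the filter. Its levels were 2.52, 2.51, 2.48 and 2.53 on HSU_Sor arrays 1 to 4, against 2.51, 2.53 and 2.50 on HSU arrays 1b to 3b. The 7 values span 0.05, and no difference in Bcl2 transcript could be read from this probe set in either direction. A value at this floor does not show that lung cells lacked the transcript, because a probe set can also respond poorly.

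Bcl2l1 encodes BCL-XL and had 3 probe sets, of which 2 were above the filter and gave differences of opposite sign. Probe set 1370812_at read 8.46, 8.40, 8.93 and 8.43 on HSU_Sor arrays 1 to 4, against 8.98, 8.67 and 8.67 on HSU arrays 1b to 3b. All HSU_Sor arrays but array 3 lay below the HSU arrays, and array 3 lay within their range, so the groups overlapped. The difference was -0.22 ± 0.15 (SE), with a 95% interval from -0.59 to 0.15 and an adjusted p of 0.874 (limma). Without HSU_Sor 3 it was -0.34 with groups that no longer overlapped (as for 8.87% of all probe sets without that array) and an adjusted p of 0.753, and without HSU 1b it was -0.12.

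The other readable Bcl2l1 probe set, 1370485_a_at, read 4.08, 4.82, 4.35 and 5.90 on HSU_Sor arrays 1 to 4, against 4.70, 4.38 and 3.89 on HSU arrays 1b to 3b. It had the widest spread of the 8 tested members, an SD of 0.66 over the 7 arrays where the median tested probe set had 0.15. Its difference was 0.47 ± 0.45 (SE), with a 95% interval from -0.62 to 1.55 and an adjusted p of 0.890, and array HSU_Sor 4 carried most of it, as it was 0.10 without that array. Affymetrix gives the ending a_at to probe sets that match several transcripts of 1 gene. Whether the pair of Bcl2l1 probe sets report different transcripts was not tested. The mean of the gene's probe sets above the filter gave a difference of 0.12, so even the direction for Bcl2l1 depends on the probe set chosen. Probe set 1369180_at lay under the filter at a mean of 2.11.

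Mcl1 encodes a short-lived anti-apoptotic protein, and both of its probe sets were above the filter with a difference of -0.07. Probe set 1372520_at read 13.24, 13.48, 13.34 and 13.52 on HSU_Sor arrays 1 to 4, against 13.51, 13.43 and 13.47 on HSU arrays 1b to 3b. The HSU values all lay inside the span of the HSU_Sor values. The 95% interval of the difference, from -0.27 to 0.12, left out a change of 1.4-fold. Its adjusted p was 0.897. Probe set 1370141_at read 10.52, 11.38, 10.73 and 11.37 on HSU_Sor arrays 1 to 4, against 11.09, 11.26 and 10.85 on HSU arrays 1b to 3b. Arrays HSU_Sor 1 and 3 were lower than every HSU array and arrays 2 and 4 higher than every HSU array, so its mean difference of -0.07 ± 0.25 (SE) describes no single array, and its interval from -0.66 to 0.53 is wide (adjusted p = 0.972).

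Bcl2a1 encodes an anti-apoptotic protein that is known mainly from white blood cells, where inflammatory signals induce it. Its probe set 1368482_at read 10.28, 10.47, 9.85 and 10.47 on HSU_Sor arrays 1 to 4, against 10.72, 10.10 and 11.07 on HSU arrays 1b to 3b. Arrays 1b and 3b lay above every HSU_Sor array, while 2b lay below all of them except HSU_Sor 3. The difference of -0.36 ± 0.26 (SE), a level 1.28-fold lower in HSU_Sor, had a 95% interval from -0.99 to 0.27 and an adjusted p of 0.874. Single arrays moved it far. Without HSU 2b it was -0.62 with groups that did not overlap, as for 13.2% of all probe sets then (adjusted p = 0.773), without HSU 3b it was -0.14, and without HSU_Sor 3 it was -0.22.

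Markers of white blood cells varied across the same arrays. Of the 8 macrophage markers listed, 7 had a probe set and 6 of those were above the filter, and 3 of the 6 (C1qa, C1qb and C1qc, the chains of complement C1q) had lower levels on every HSU_Sor array than on any HSU array, at adjusted p-values of 0.635, 0.756 and 0.524. The other 3 overlapped between the groups and had positive differences, 0.01 ± 0.34 for Mrc1, 0.17 ± 0.12 for Csf1r and 0.39 ± 0.51 for Cd68 (SE). C1qa read 10.61, 10.77, 9.50 and 9.38 on HSU_Sor arrays 1 to 4, against 11.79, 11.26 and 12.23 on HSU arrays 1b to 3b. Within HSU, array 3b had the highest C1qa, the highest Bcl2a1 and the highest natural killer cell markers Klrb1a (8.42) and Nkg7 (7.80). Array 2b had the lowest C1qa and the lowest Bcl2a1. C1qb, C1qc and Csf1r had the same order of HSU arrays as C1qa. Mrc1 (12.73) and Cd68 (10.42) were highest on 1b, and Klrb1a (6.29) and Nkg7 (4.21) were lowest there. HSU_Sor 4 had the lowest C1qa of all 7 arrays, while its Bcl2a1 of 10.47 was, with HSU_Sor 2, the highest in that group. Summed macrophage marker levels ran from 13.40 to 13.74 in HSU_Sor and from 13.50 to 14.26 in HSU, and those of T and NK cells (7 markers measured) from 9.30 to 9.82 in HSU_Sor and from 9.11 to 10.39 in HSU. Neutrophil markers, of which 2 of 6 measured were above the filter, summed to between 11.26 and 13.88 in HSU_Sor and between 11.42 and 12.15 in HSU. Their highest array was HSU_Sor 3, which had the lowest Bcl2a1 of all 7. The part of these cells in the Bcl2a1 values was not tested. In whole lung RNA, fewer cells of a type and less of a transcript per cell cannot be told apart.

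**Figure D2:**
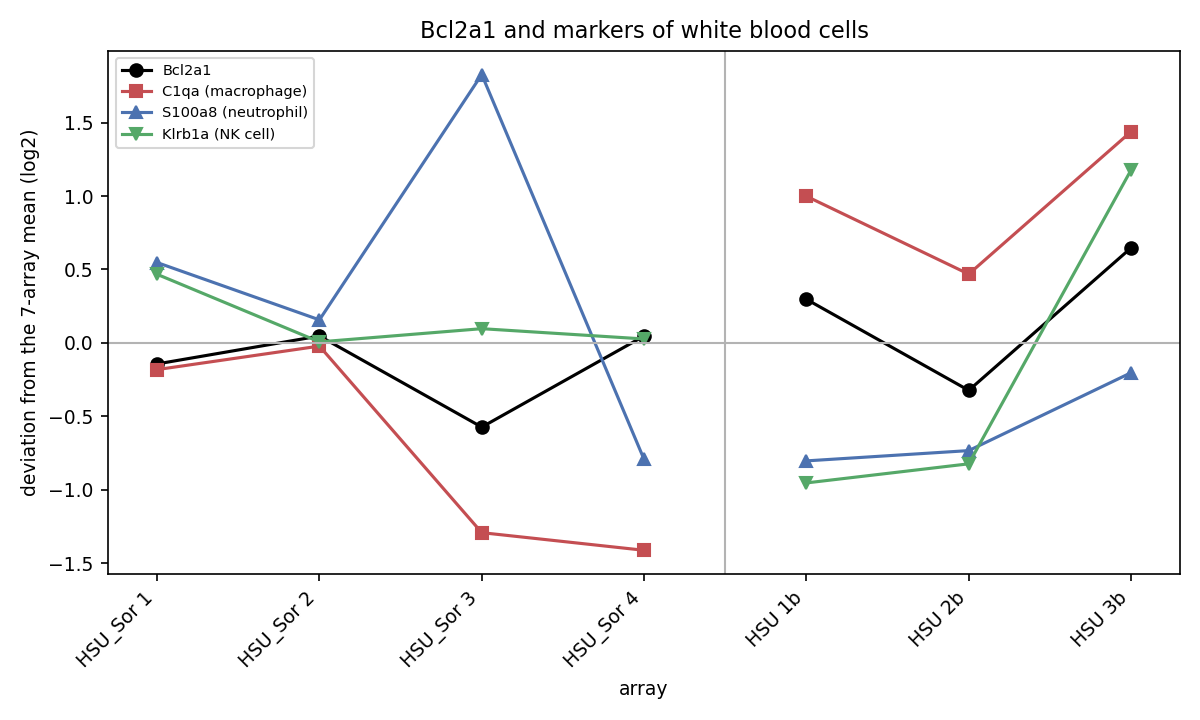
Log2 level of Bcl2a1 (circles), C1qa (squares), S100a8 (upward triangles) and Klrb1a (downward triangles) as deviations from each probe set's mean over the 7 arrays, with HSU_Sor arrays left of the vertical line and HSU arrays right of it. Lines only join the points of 1 gene. Bcl2a1 and C1qa are both highest on HSU 3b, and S100a8 is highest on HSU_Sor 3, where Bcl2a1 is lowest. C1qa is lowest on HSU_Sor 4, where Bcl2a1 is not.

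Bak1 encodes an effector that sits in the outer mitochondrial membrane and forms the pores. It was the 1 member whose groups were separate. Its probe set 1368066_at read 7.88, 7.86, 7.94 and 7.87 on HSU_Sor arrays 1 to 4, against 7.74, 7.69 and 7.64 on HSU arrays 1b to 3b. Every HSU_Sor array was above every HSU array, a pattern that 2.01% of all tested probe sets had in that direction. The mean was 7.89 ± 0.04 in HSU_Sor and 7.69 ± 0.05 in HSU (SD, n = 4 and 3), a difference of 0.19 ± 0.05 (SE) with a 95% interval from 0.08 to 0.31. That is 1.14-fold, with an interval from 1.06-fold to 1.24-fold. Bak1 had an unadjusted p of 0.00555 and an adjusted p of 0.602 (limma), so it failed the correction over all probe sets.

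Under the alternatives tried the Bak1 difference stayed between 0.17 and 0.24, higher in HSU_Sor each time, while its adjusted p ran from 0.457 to 0.921. It was under the stricter filter at the 75th percentile and was not tested there. Markers of several cell types were separate between the groups as well. The endothelial Vwf, with a difference of 0.41 ± 0.08, and the alveolar type I marker Aqp5, with 0.29 ± 0.07 (SE), were higher on every HSU_Sor array, as Bak1 was (adjusted p = 0.567 and 0.597). They were 1 of 5 tested endothelial and 1 of 4 tested type I probe sets. Smooth muscle markers had differences of the opposite sign. Of their 7 probe sets, 3 (for Tagln, Des and Cnn1) were lower on every HSU_Sor array than on any HSU array, and all 7 had a negative difference. Tagln, which codes for an actin-binding protein of smooth muscle, averaged 13.37 in HSU_Sor and 14.10 in HSU. The part of a different cell makeup in the Bak1 difference was not tested.

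**Figure D3:**
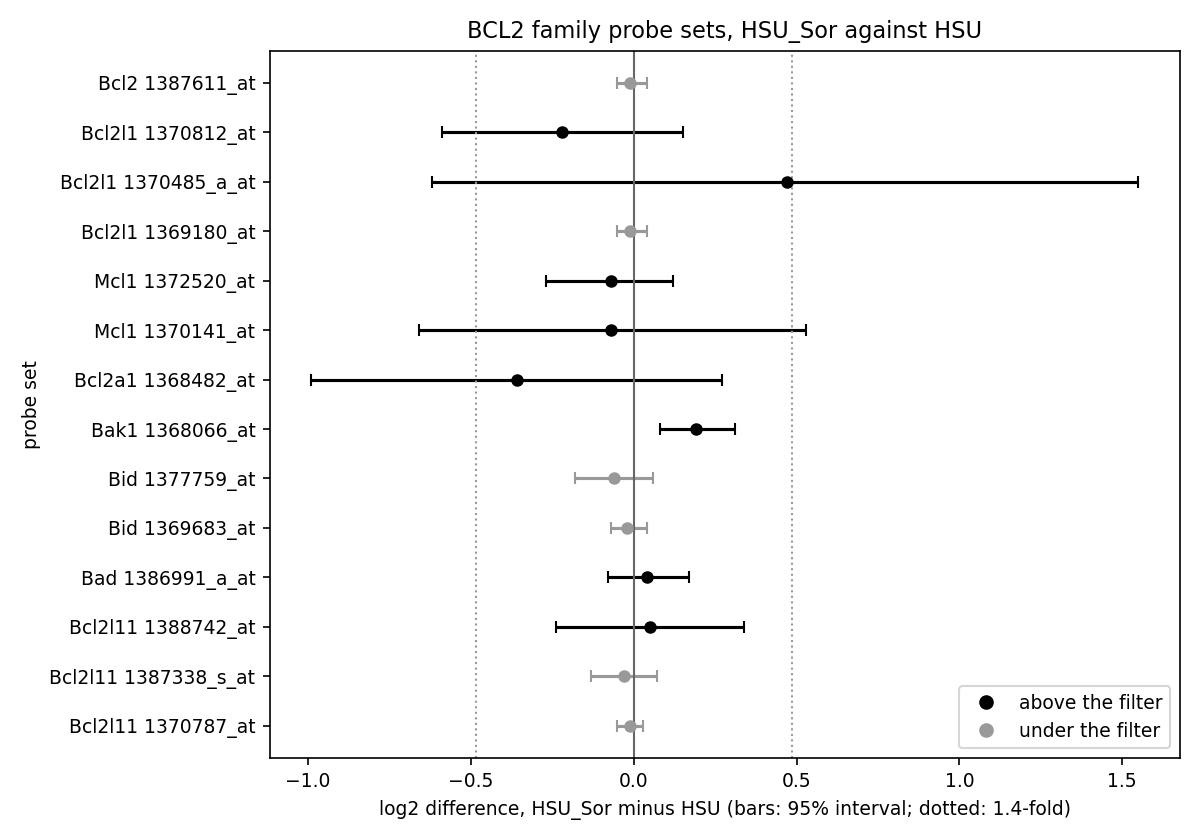
Difference of the log2 level (HSU_Sor minus HSU, horizontal axis) for each of the 14 BCL2 family probe sets, with its 95% interval from limma. Black marks the 8 probe sets above the filter and grey the 6 under it, and dotted lines mark 1.4-fold. Only the interval of Bak1, from 0.08 to 0.31, leaves out 0.

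Of the BH3-only genes, Bad and Bcl2l11 were readable and did not differ between the groups by more than their spread. Bad, whose protein is switched off by survival kinases, read 9.83, 9.83, 9.89 and 9.98 on HSU_Sor arrays 1 to 4, against 9.84, 9.86 and 9.83 on HSU arrays 1b to 3b. Array HSU_Sor 4 was the highest, and the other arrays lay within 0.06 of each other. The difference of 0.04 ± 0.05 (SE) had a 95% interval from -0.08 to 0.17, or 0.943-fold to 1.13-fold, the narrowest of the 8 together with Bak1 (adjusted p = 0.907). A change of 1.4-fold in either direction lay outside that interval.

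Bcl2l11 encodes BIM, a BH3-only protein whose amount is lowered by ERK signalling, the pathway downstream of RAF. Its probe set 1388742_at read 9.30, 9.14, 9.20 and 8.82 on HSU_Sor arrays 1 to 4, against 9.04, 8.98 and 9.18 on HSU arrays 1b to 3b. The highest and the lowest value both came from HSU_Sor arrays, so the groups overlapped fully. The difference was 0.05 ± 0.12 (SE), with a 95% interval from -0.24 to 0.34 and an adjusted p of 0.944. It turned to -0.01 without HSU_Sor 1 and reached 0.15 without HSU_Sor 4. The other probe sets of Bcl2l11, 1387338_s_at and 1370787_at, lay under the filter at means of 3.05 and 1.84.

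Bid, which is cleaved by caspase-8 and so links death receptors to mitochondria, had 2 probe sets, both under the filter. Probe set 1377759_at read 2.45, 2.44, 2.45 and 2.45 on HSU_Sor arrays 1 to 4, against 2.45, 2.45 and 2.64 on HSU arrays 1b to 3b. Only HSU 3b left the common value. The other Bid probe set, 1369683_at, averaged 2.06, with a difference of -0.02.

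The 6 member probe sets under the filter lay among many others with narrow spans. In the fit over all 31042 probe sets, 0 of the 6 had an unadjusted p below 0.05, as 1090 of all did, and 0 of all passed the adjusted threshold. All 6 spanned less than 0.2 over the 7 arrays, as 90.2% of all probe sets under the filter did. In 5 of the 6, HSU 2b was the highest array and HSU_Sor 3 the lowest, an order that 64.2% of all probe sets under the filter shared. A narrow span was not limited to dim probe sets, since 16.6% of those above the filter also spanned less than 0.2. Bad was 1 of these.

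The arrays within HSU_Sor differed more among themselves for some members than the groups did. In 3 of the 8 tested members (both Mcl1 probe sets and Bcl2l1 1370485_a_at) array 1 was the lowest of the HSU_Sor arrays and array 3 the next. Of all tested probe sets 10.8% had this order. A count of it was not planned, and both Mcl1 probe sets report 1 gene, so no excess is read from it. The 5 genes whose profile over the 7 arrays was most like that of Bcl2l1 1370485_a_at, out of 9299 genes, were Aifm1 (Pearson r = 0.98), Dedd (0.98), Dimt1 (0.97), Cmc2 (0.97) and Ythdf2 (0.96). These values describe 7 arrays that share their processing, and with so many genes searched high values arise easily. All 5 genes were highest on HSU_Sor 4, Dedd at 9.51 and Aifm1 at 10.91. Aifm1 codes for a mitochondrial flavoprotein and Dedd for a protein with a death effector domain.

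**Figure D4:**
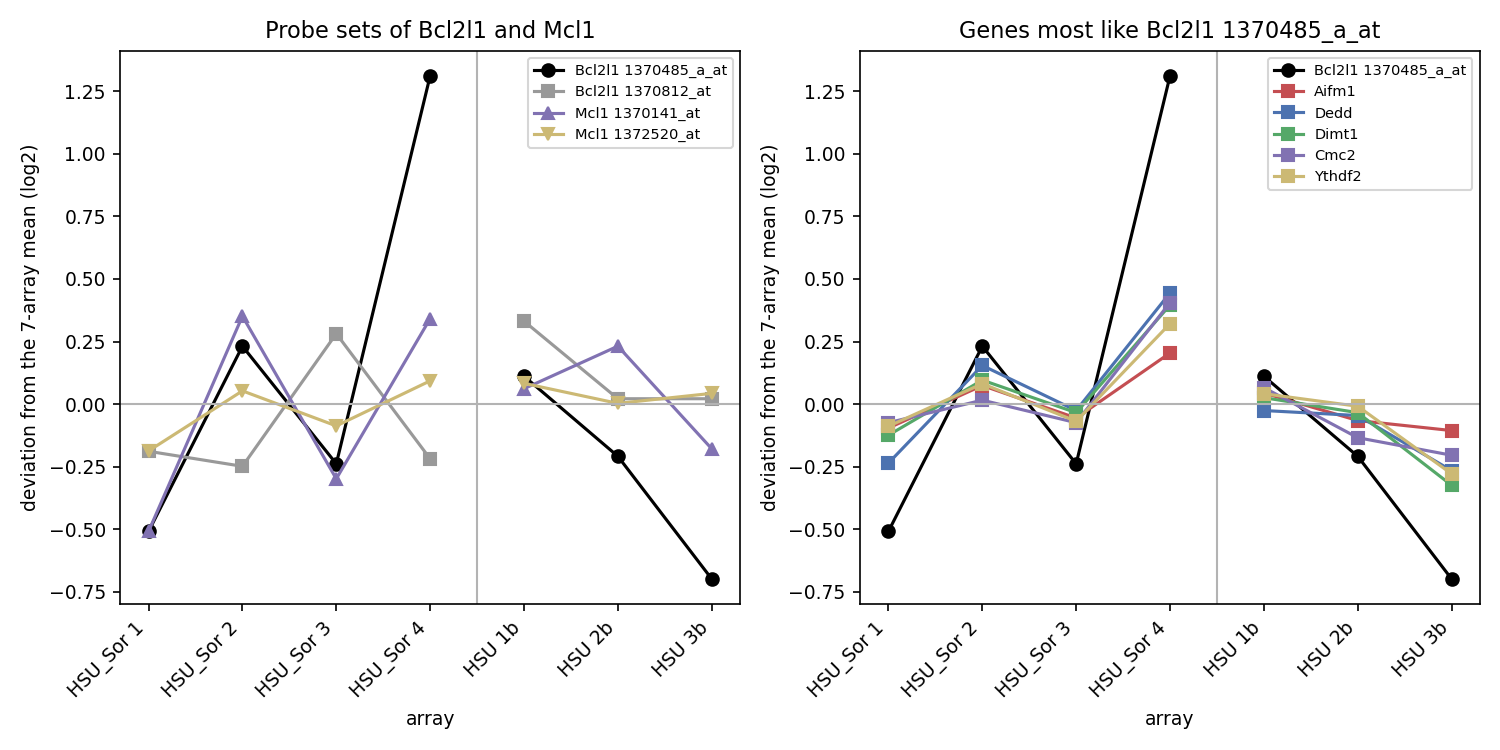
Deviation of the log2 level from each probe set's mean over the 7 arrays, for the readable probe sets of Bcl2l1 and Mcl1 (left panel) and for Bcl2l1 1370485_a_at beside the 5 genes most like it (right panel). HSU_Sor arrays stand left of the vertical line and HSU arrays right of it, and lines only join the points of 1 probe set. The pair of Bcl2l1 probe sets part on HSU_Sor 3 and 4, where 1 reads 8.93 and 8.43 and the other 4.35 and 5.90.

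No gene of the wider pathway passed the test either. The 6 further apoptosis lists held 56 genes, of which 46 had a probe set with 1 symbol, and 46 probe sets were above the filter. Of these 46, 0 had an adjusted p below 0.05, 0 an unadjusted p below 0.05 and 0 a difference of 1.4-fold, where the shares of all tested probe sets were 0%, 6.00% and 4.46%. The groups were separate for 1 of the 46, against 5.26% of all.

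Among other BCL2 family genes, 12 of 14 had a probe set and 9 probe sets were tested, 3 with a positive and 6 with a negative difference. The one with the smallest p was Bnip3, a hypoxia-induced mitochondrial gene. It read 10.99, 11.11, 11.53 and 11.58 on HSU_Sor arrays 1 to 4, against 11.88, 11.57 and 11.62 on HSU arrays 1b to 3b. HSU_Sor 4 lay just above HSU 2b, so the groups overlapped, and the difference was -0.39 ± 0.17 (SE; adjusted p = 0.861). Its relative Bnip3l, which acts in mitophagy as well, had differences of 0.07 ± 0.05 (SE) at 1367898_at and 0.00 ± 0.06 (SE) at 1386978_at. Bok, an effector-like gene, had -0.15 ± 0.08 (SE) at 1373733_at and -0.24 ± 0.20 (SE) at 1369084_a_at. Bcl2l14 had 0.20 ± 0.16 (SE), which was 0.07 without HSU 2b and 0.09 without HSU_Sor 3.

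For the caspases, 7 of 10 genes had a probe set, and 9 probe sets above the filter had differences from -0.29 to 0.34, 4 of them positive and 5 negative. The initiators were Casp8, with -0.10 ± 0.08 and -0.09 ± 0.07 (SE) at its 2 tested probe sets, and Casp9, the caspase of the apoptosome, with 0.25 ± 0.17 (SE). Casp9 read 5.28, 5.35, 5.26 and 5.27 on HSU_Sor arrays 1 to 4, against 5.27, 4.58 and 5.25 on HSU arrays 1b to 3b, so its difference came from HSU 2b alone and was 0.03 without it. The executioner Casp6 stayed between 8.47 and 8.54 on all 7 arrays. So narrow a span can also come from a probe set that responds poorly, which was not tested. Casp2 had differences of 0.00 ± 0.11 and -0.29 ± 0.38 (SE) at its 2 probe sets.

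Casp4 and Casp1, the inflammatory caspases, process cytokines and trigger lytic death. Casp4 had the smallest p among the caspases, with levels of 7.14, 7.31, 7.11 and 6.99 on HSU_Sor arrays 1 to 4, against 6.45, 6.87 and 7.08 on HSU arrays 1b to 3b. The groups overlapped through HSU 3b, and the difference of 0.34 ± 0.16 (SE) had an adjusted p of 0.870. It was 0.17 without HSU 1b. Casp1 had a difference of 0.05 ± 0.18 (SE), and Casp12, a caspase of the endoplasmic reticulum in rodents, 0.14 ± 0.21 (SE), which was 0.02 without HSU_Sor 2, 0.04 without HSU_Sor 4 and 0.06 without HSU 1b.

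In the apoptosome and mitochondrial release list, 7 of 8 genes had a probe set, and 7 of the 8 tested probe sets had a negative difference, with a median of -0.09 and 0 past the unadjusted threshold. Apaf1, the scaffold of the apoptosome, had -0.09 ± 0.08 (SE), Htra2, a protease released from mitochondria, -0.09 ± 0.07 (SE), Diablo, which blocks inhibitor of apoptosis proteins, -0.04 ± 0.05 (SE), and Vdac1, a channel of the outer membrane, -0.11 ± 0.06 (SE). Among the inhibitors of apoptosis proteins themselves, 4 of 6 genes had a probe set, and the differences were 0.06 ± 0.05 (SE) for Xiap 1379555_at, -0.44 ± 0.88 (SE) for Xiap 1369248_a_at, 0.02 ± 0.10 (SE) for Birc2 and -0.04 ± 0.15 (SE) for Birc3. Birc5, a gene of dividing cells, was under the filter.

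Death receptors, their ligands and adaptors had a probe set for 9 of 10 genes. Tnfrsf1a, the main TNF receptor, was the only one of the 46 pathway probe sets with separate groups. It read 11.58, 11.66, 11.66 and 11.34 on HSU_Sor arrays 1 to 4, against 11.76, 11.74 and 11.71 on HSU arrays 1b to 3b. Every HSU_Sor array was lower, by -0.18 ± 0.09 on average (SE; adjusted p = 0.874). Cflar, which keeps caspase-8 in check, had -0.26 ± 0.18 (SE) at 1379919_at. That probe set was highest on HSU 3b (7.24), the array with the highest Bcl2a1, and its difference was -0.04 without that array. Cflar 1368545_at, with a mean of 3.70 just past the filter, had -0.05 ± 0.16 (SE). The adaptors Fadd and Tradd had differences of 0.12 ± 0.09 and -0.08 ± 0.06 (SE). All 7 p53 target genes of the list had a probe set. Ccng1 had a difference of -0.12 ± 0.08 (SE) and the cell cycle inhibitor Cdkn1a of -0.08 ± 0.18 (SE). Mdm2 had 0.10 ± 0.08 (SE) at 1383288_at and 0.05 ± 0.15 (SE) at 1384427_at.

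**Figure D5:**
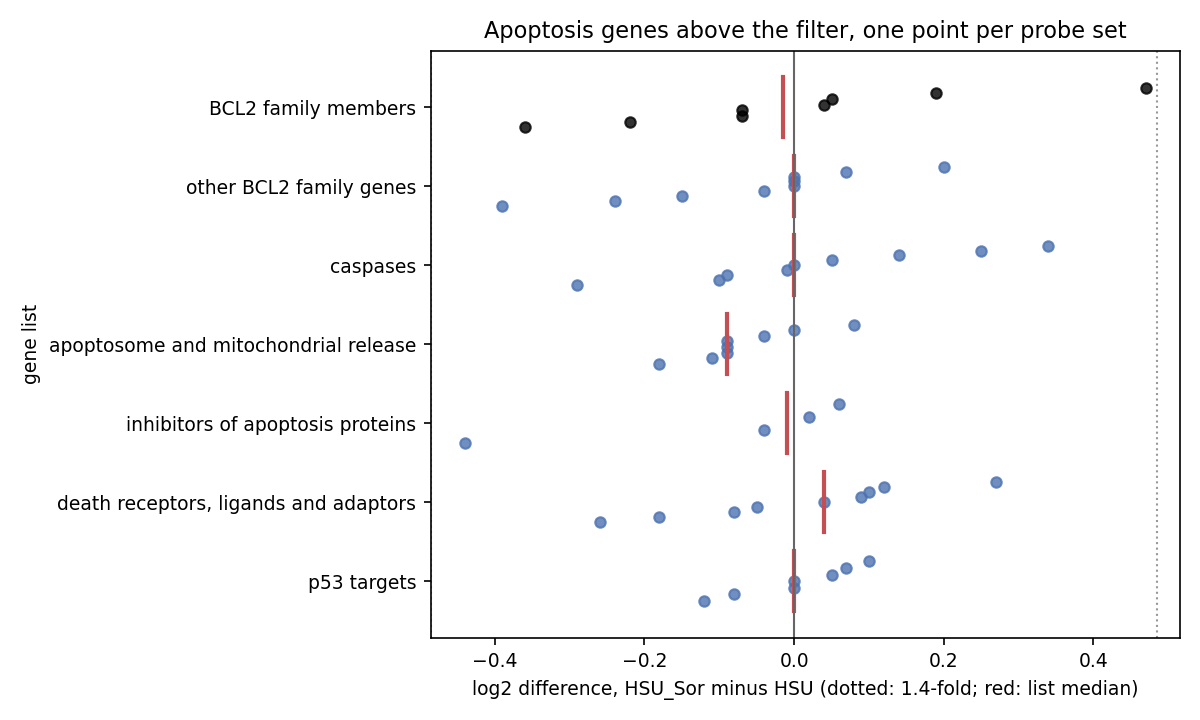
Difference of the log2 level (HSU_Sor minus HSU, horizontal axis) of each tested probe set of the BCL2 family members (black) and of the 6 further apoptosis lists (blue), with each list's median as a red bar and 1.4-fold as a dotted line. All points lie between -0.44 and 0.47, and the list medians lie between -0.09 and 0.04.

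The precision of these statements differs by member. The median half-width of the 95% interval over the 8 tested member probe sets was 0.33, so for a typical member a change of 1.4-fold would have lain outside an interval centred on 0. The intervals of Mcl1 1372520_at, Bak1, Bad and Bcl2l11 1388742_at left out a change of 1.4-fold in either direction. Those of Bcl2a1, Mcl1 1370141_at and both Bcl2l1 probe sets reached past 1.4-fold in at least 1 direction, so a change of that size in these probe sets was neither shown nor bounded.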

How the data were processed

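Total RNA of 7 rat lungs was hybridised to Affymetrix expression arrays, per the labels' protocols. The values the authors deposited are log2 levels, 1 per probe set and array, already normalized. The submitters' processing notes name RMA and GCRMA. Their versions, and which of them made the values, were not given in the sources at hand. The number of arrays limits the precision. The study design counts rats, and each array was taken as a rat of its own. Nothing in the labels says more of how replicates were made, so p-values measure the spread between these arrays.

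Groups were taken from the sample titles. The 57 control probe sets were left out. Of the other 31042, 20826 had 1 gene symbol in the platform annotation, 436 several and 9780 none. The RefSeq gene table of assembly GRCr8 matched 20758 of them by gene identifier and changed 0 symbols. HSU_Sor minus HSU was fitted by lmFit and eBayes of limma 3.58.1 in R 4.3.3, two-sided and with no covariate, on 15521 probe sets (those with a mean above 3.64, the midpoint of all), with Benjamini-Hochberg adjustment at 0.05. Probe sets under the filter were read from a fit on all 31042. The fit was tested on simulated data with independent noise for each probe set. Such data lack the patterns that genes share across these arrays, so they do not show how the fit performs here. An exact permutation test of 3 arrays against 4 cannot give a two-sided p below 0.0571, so none was used.

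The members, lists and alternatives were chosen with earlier results of these data known. All member probe sets and caspases are named, up to 4 genes of each other pathway list by smallest unadjusted p in the fit on all 31042 probe sets, and up to 3 markers per list by highest mean. C1qb, C1qc, Cd68, Nkg7, Des, Cnn1, Vwf, Aqp5 and Xiap 1369248_a_at were named after their values were seen. So were Bbc3, Ripk1 1371529_at, Cflar 1368545_at, Mdm2 1384427_at, Bnip3l 1386978_at and Bok 1369084_a_at. A ratio of Bax to Bcl2 was planned and could not be computed. The series description names SAM with a minimum fold of 1.4, and only that fold was kept. Alternatives were 2 filters, median centring, quantile normalization, array weights, a robust eBayes with an intensity trend, 1 probe set or the mean per gene, a replicate block, each array left out, and fits without HSU 1b and 2b or HSU_Sor 3 and 4.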

Additional observations from a re-analysis of the deposited data

Results flagged for a closer look

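In the 4 HSU_Sor arrays, 6 of 41 probe sets of members and named pathway genes had 1 array set apart from the other 3 by more than Dixon's critical ratio, which chance exceeds in about 5% of groups. The share of all tested probe sets past that ratio was not counted. Whether 6 of 41 is more than on the rest of the array therefore cannot be told. The HSU group of 3 was too small for this check. HSU_Sor 3 was the high array for Bcl2l1 1370812_at, at 8.93 against 8.40 to 8.46, and for Bcl2l14, at 7.75 against 7.30 to 7.31. HSU_Sor 2 was the high array for Casp9, at 5.35 against 5.26 to 5.28, and for Fadd, at 8.33 against 8.10 to 8.14. It was the low array for Bid 1377759_at, at 2.44 against 2.45, a gap at the floor of the scale. HSU_Sor 4 was the low array for Casp8 1380297_at, at 9.65 against 9.78 on the other 3. Without HSU_Sor 3 the groups of Bcl2l1 1370812_at were separate, and the difference of Bcl2l14 was 0.09 in place of 0.20.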

How the results depend on the processing

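No member probe set had an adjusted p below 0.05 under any of the 18 alternatives (lowest 0.122, Bid 1377759_at), and of 225 recomputed member differences 14 changed sign. With each array left out in turn, 0 to 6 of all probe sets had an adjusted p below 0.05 (6 without HSU 3b). Members with an unadjusted p below 0.05 ran from 1 to 2, where 4.50% to 6.00% of all probe sets had one. Members with separate groups ran from 1 to 2, where 7.71% to 13.2% of all probe sets had them. The second member was Bcl2a1 without HSU 2b and Bcl2l1 1370812_at without HSU_Sor 3. Without HSU 1b and 2b, where the lone HSU array is assumed to vary like the HSU_Sor arrays, 10 probe sets were called, 2 members had an unadjusted p below 0.05 (7.62% of all did) and 4 had separate groups (36.9% of all did). Without HSU_Sor 3 and 4 both member counts were 2, where 6.58% of all probe sets had an unadjusted p below 0.05 and 17.9% separate groups. Above the 75th percentile 6 of 7761 probe sets were called, and with 5 members left (Bak1 was not among them) both member counts were 0. Of all probe sets there, 7.24% had an unadjusted p below 0.05 and 6.57% separate groups. With the replicate block Bak1 was 0.20, Birc3 0.04 and Cdkn1a 0.03. In that fit 1 member had an unadjusted p below 0.05, as 6.64% of all probe sets did, and 0 an adjusted one. Arrays of the same number correlated at -0.059, 0.179 and 0.144 in their deviations from the group means. Arrays of different numbers correlated at -0.167 to 0.24. Values this mixed, from so few arrays, cannot show whether the numbers pair the arrays, and the labels do not say.

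Signs turned as follows, with the cause not tested. Bcl2 was 0.01 with quantile normalization, with median centring and without HSU 1b and 2b, and Bcl2l1 1369180_at was 0.01 with the last 2 of these. The mean of probe sets gave 0.12 for Bcl2l1 and -0.19 for Xiap. Without HSU 1b and 2b the values were 0.15 for Mcl1 1370141_at, -0.06 for Bcl2l11 1388742_at, 0.02 for 1387338_s_at, -0.36 for Casp1, 0.02 for Casp6 (0.01 with median centring), -0.02 for Casp12, 0.15 for Casp2 1367891_a_at, -0.02 for Xiap and -0.04 for Mdm2. Without HSU_Sor 3 and 4 they were -0.01 for Bad, 0.07 for Birc3 and 0.11 for Cdkn1a. Array weights gave 0.01 for Birc3 and -0.01 for Birc2. With single arrays left out, Mcl1 1370141_at ran from -0.19 to 0.09, Bcl2l11 1388742_at from -0.01 to 0.15, Casp1 from -0.05 to 0.26, Casp2 1367891_a_at from -0.51 to 0.01, Casp6 from -0.02 to 0.01, Diablo from -0.08 to 0.01, Birc3 from -0.17 to 0.08, Birc2 from -0.05 to 0.09 and Cdkn1a from -0.20 to 0.03. Dim probe sets are compressed at the floor, which limits what can be read of Bcl2 and Bid.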

Other observations

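Second probe sets of Xiap, Ripk1 and Vdac1 showed the order of HSU_Sor arrays given above for Mcl1 (array 1 lowest, array 3 next). These were picked for this after their values were seen. Other pathway probe sets had the same order, among them Casp2 1367891_a_at, Casp8 1369262_at, Mdm2 1384427_at, Aifm1 1370321_at, Birc2 1368291_at and Ccng1 1367764_at. It was not limited to second probe sets, as those of Birc2 and Ccng1 had the highest mean of their gene. Of all tested probe sets 10.8% had that order, and how many of the pathway probe sets had it was not counted. Xiap 1369248_a_at read 5.42, 9.26, 7.34 and 8.64 on HSU_Sor arrays 1 to 4, against 8.08, 8.20 and 8.04 on HSU arrays 1b to 3b. The other Xiap probe set, 1379555_at, stayed between 10.67 and 10.83. Ripk1 1391543_at read 4.07, 5.96, 5.15 and 6.49 on HSU_Sor arrays 1 to 4, and Vdac1 1386909_a_at 10.76, 11.44, 10.98 and 11.47. Xiap blocks caspases, Ripk1 is a kinase of the TNF receptor complex and Vdac1 a channel of the outer mitochondrial membrane. On the HSU arrays these probe sets read 5.23, 5.12 and 5.11 for Ripk1 and 11.28, 11.50 and 11.25 for Vdac1. Brighter probe sets of both genes had other orders. Ripk1 1371529_at read 9.27, 9.06, 9.69 and 9.34 on HSU_Sor arrays 1 to 4, with array 3 highest. Vdac1 1367706_at read 12.36, 12.18, 12.29 and 12.21, with array 1 highest. Bbc3, which encodes the BH3-only protein PUMA, stayed between 8.47 and 8.50 on all 7 arrays.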
